A study of Mus musculus with 10 samples.

Results

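Mouse embryonic stem cells of the E14tg2a line were treated with etomoxir for 4 days and compared with cells given water for the same time. Etomoxir is an inhibitor of the carnitine palmitoyltransferases of the CPT1 family. The comparison takes 4 of the 10 libraries of the study, 2 of the group called ETO (etomoxir) and 2 of the group called Control (water), and all genes of the deposited count table. E14tg2a is a blastocyst-derived line kept here in the medium called 2i/LIF. This is Ndiff227 with 1 µM PD0325901 (an inhibitor of MEK), 3 µM CHIR99021 (an inhibitor of GSK3) and 1000 U/ml of the cytokine LIF, and both groups were treated in it. The labels give no dose of etomoxir, and the comparison rests on 1 line. The other libraries are the E14tg2a group called Released (taken 4 days after the end of the same treatment) and the groups WT (wild type) and KO (Mof-KO) of Mof fl/fl, Cre-ER TM cells on C57BL/6J, treated for 3 days with ethanol or 4-hydroxytamoxifen. They add to the estimate of the spread, and Released levels are given once at the end. The question, as far as the labels state it, is what follows for the transcripts of these cells when fatty acid oxidation (FAO in the labels) is inhibited.

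Fatty acids must be joined to carnitine by CPT1 on the outer mitochondrial membrane before a translocase carries them inside and CPT2 returns them to coenzyme A for beta-oxidation. The acetyl-CoA made there feeds the TCA cycle, and the electrons go to the respiratory chain. Naive embryonic stem cells in 2i/LIF hold a transcription factor network around Pou5f1, Sox2 and Nanog. They receive Wnt pathway activation from CHIR99021 and a block of ERK signalling from PD0325901.

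Of 49624 gene names, 16058 were tested, those with a normalised count of at least 10 in at least 2 libraries. The 4 libraries held 10562100 to 12194600 normalised counts, from an estimated 10685600 to 12871000 reads. Of the tested genes, 9765 (60.8%) passed an adjusted p of 0.05 in limma, 4308 rising (26.8%) and 5457 falling (34%). A count of list members below is to be read against these shares and against the level of its genes. Falls were more frequent at high counts. Of 664 genes with a mean of 3000 normalised counts or above in Control and ETO, 138 rose and 413 fell. Of 2530 genes at 1000 to 3000, 569 rose and 1308 fell. At least 2-fold changes were more often rises, 2224 genes (13.8%) against 1325 falls (8.25%). Changes of at least 4-fold were 1005 rises (6.26%) against 200 falls (1.25%). Those of at least 8-fold were 452 rises (2.81%) against 56 falls (0.349%). The 2-fold excess lay at lower counts, with 793 rises and 380 falls at a mean under 30. It turned at high counts, with 107 rises and 145 falls at 1000 to 3000 and 28 and 44 at 3000 or above. In 13104 genes (81.6%) both libraries of one group lay beyond both of the other. The median change over all tested genes was -0.09 on the log2 scale of normalised count + 1, the scale of every log2 change below. Scaling by total signal moved that median to 0.09 and the share of rises among the calls from 44.1% to 58.7%, with 857 falls of at least 2-fold. The labels call the replicates biological duplicates and do not say that they came from separate cultures, so the p-values measure the spread between these samples. In bulk RNA, fewer cells of a type and less RNA per cell cannot be told apart.

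**Figure D1:**
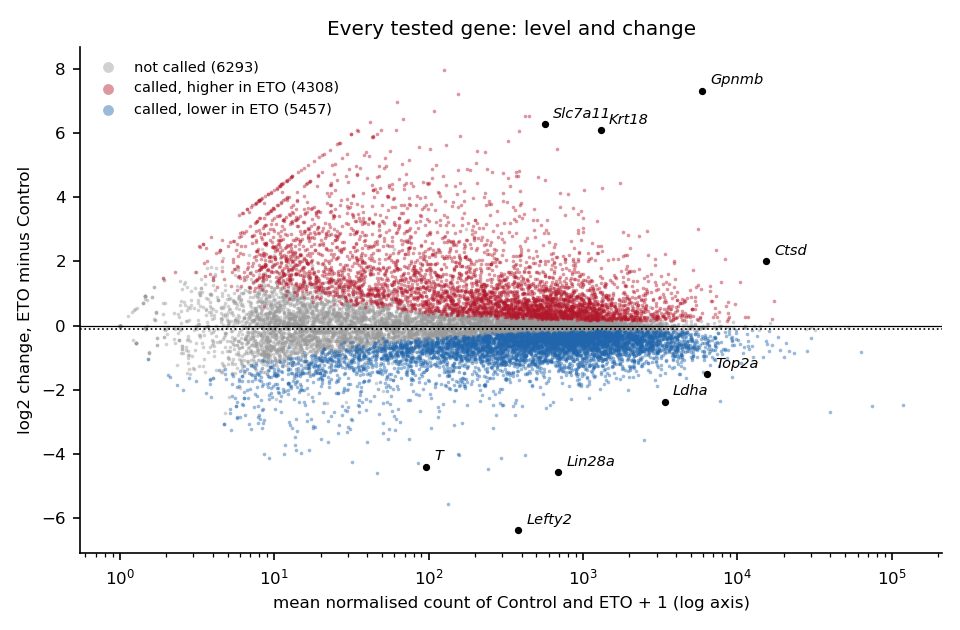
Change on the log2 scale (vertical axis) against the mean normalised count of Control and ETO plus 1 (horizontal log axis) for each of the 16058 tested genes, with calls in red (4308 higher in ETO) and blue (5457 lower). The dotted line is the median change of -0.09, and the 8-fold and larger changes lie mostly above it.

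Transcripts of the drug's target family were higher after treatment. Cpt1a, the CPT1 form of liver and most other tissues, measured 2297 and 2153 in Control and 4365 and 4392 in ETO, and per length of transcript 36.4 FPKM in Control and 71.8 in ETO. Cpt1c, a form best known from brain, measured 740.4 and 701 in Control and 1689.9 and 1755 in ETO, and 26.2 FPKM in Control and 57.9 in ETO. Cpt2, the inner membrane enzyme, had the lowest FPKM level of these, 10.03 FPKM in Control and 22.2 in ETO, and rose by 1.15 on the log2 scale. All 3 had both ETO libraries above both Control libraries, as did 35.8% of all tested genes. The row that merges Cpt1b, the muscle form, with the overlapping gene Chkb went from 396 and 453 to 1821 and 1844, and its reads cannot be assigned to either gene.

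Of 11 tested genes of the carnitine shuttle, 8 rose and 1 fell, with a median log2 change of 0.75. That count holds the CPT genes above, and of the other 7 genes 4 rose, 1 fell and 2 did not pass. Slc25a20, the carnitine-acylcarnitine translocase, went from 865 and 795 to 1394 and 1392 (log2 change 0.75 ± 0.07 SE, adjusted p = 3.5e-07). Mlycd, which breaks down malonyl-CoA, the natural inhibitor of CPT1, went from 45.1 and 60.2 to 161 and 172 (log2 change 1.66 ± 0.19 SE, adjusted p = 1.61e-06). Crat, which handles short chains, rose by 0.59, and the row of Crot, its peroxisomal counterpart, was the 1 that fell (-0.69). The carnitine importer Slc22a5 did not pass the test (0.22, adjusted p = 0.266).

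Beta-oxidation itself did not move as a block. Of 25 rows of its enzymes, 6 rose and 11 fell, with a median of -0.10, close to that of all genes and above 0 with median-of-ratios or total signal scaling, where the latter turned the count to 9 rises and 6 falls. Acadl, the long-chain acyl-CoA dehydrogenase, measured 194 and 177 in Control and 543 and 529 in ETO (log2 change 1.53 ± 0.10 SE, adjusted p = 3.54e-09). Acadm, the medium-chain enzyme, went the other way, from 2007 and 2104 to 1315 and 1341 (log2 change -0.63 ± 0.07 SE, adjusted p = 1.1e-06). Etfdh, which passes the electrons of these dehydrogenases to ubiquinone and shares its row with a predicted gene, went from 335 and 382 to 809.7 and 771 (log2 change 1.14 ± 0.10 SE, adjusted p = 6.79e-08). Hadha, of the trifunctional protein, just missed the threshold (1537 and 1652 in Control and 1412 and 1449.7 in ETO; log2 change -0.16, adjusted p = 0.0538), and passed as a fall with the 6 E14tg2a libraries alone.

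Genes known as targets of the fatty acid-sensing PPAR receptors and genes of lipid storage were mostly higher. Of 14 tested PPAR factors and targets, 10 rose and 2 fell (median 1.12). Ppard, the receptor PPAR-delta, went from 538 and 573 to 1468 and 1528 (log2 change 1.43 ± 0.09 SE, adjusted p = 1.42e-09). Pdk4, the kinase that turns off pyruvate dehydrogenase, went from 103 and 107 to 384 and 417 (log2 change 1.92 ± 0.10 SE, adjusted p = 3.87e-10). The row of the acyl-CoA thioesterases Acot1 and Acot2 went from 34.1 and 41.5 to 565 and 573. Angptl4, an inhibitor of lipoprotein lipase and also a PPAR target, fell from 218 and 231 to 116 and 145 (log2 change -0.79 ± 0.17 SE, adjusted p = 0.0009). Of 20 lipid droplet and triglyceride genes, 13 rose and 1 fell. Plin2, the coat protein of lipid droplets, measured 582 and 591 in Control and 3956 and 4117 in ETO (log2 change 2.78 ± 0.07 SE, adjusted p = 1.35e-13). Dgat2, which makes triglyceride, went from 24.2 and 21.8 to 169 and 170.2. Abhd5, the co-activator of the lipase Pnpla2, went from 340.1 and 316 to 744 and 792. ETO lay above Control without overlap in Plin2, Dgat2 and Abhd5, as in 35.8% of all tested genes.

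Peroxisomal lipid enzymes had 5 rises and 10 falls among 20. Phyh, the phytanoyl-CoA hydroxylase, fell (from 849 and 824 to 298 and 257; log2 change -1.59 ± 0.10 SE, adjusted p = 1.65e-09). Of 29 cholesterol genes 19 rose and 3 fell, with a rise of Lss, lanosterol synthase (0.84), and a fall of the sterol exporter Abcg1 (-1.13). Fatty acid synthesis was split, with 10 rises and 9 falls among 22.

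**Figure D2:**
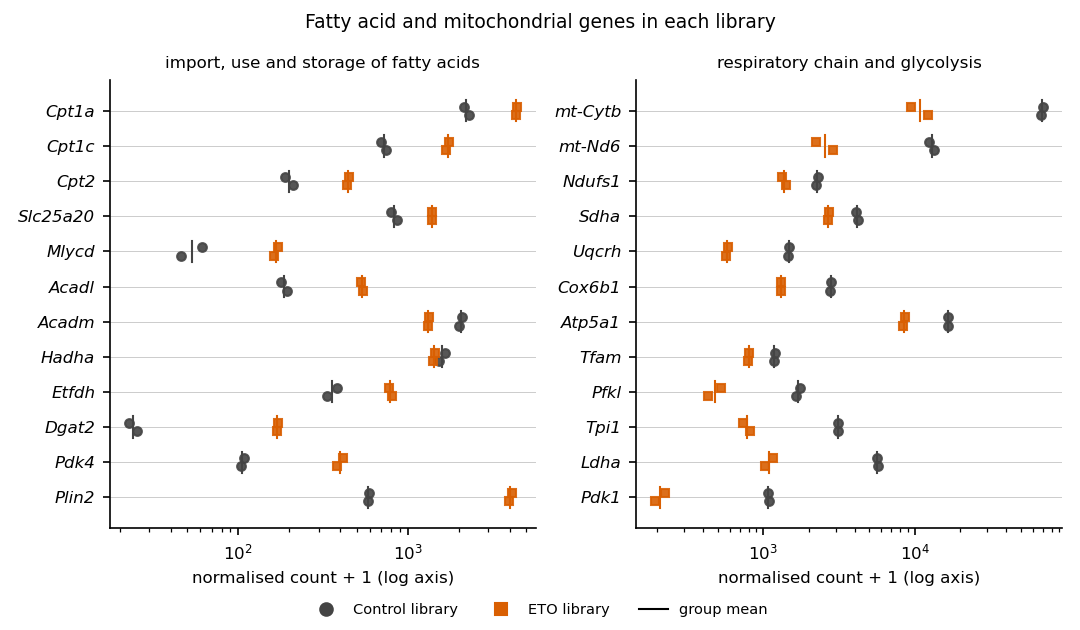
Normalised count plus 1 (log axis) of 12 genes of fatty acid import, use and storage and 12 of the respiratory chain and glycolysis in each library, Control in grey circles and ETO in orange squares, with a bar at each group mean. Cpt1a, Cpt2, Plin2 and Pdk4 lie higher in both ETO libraries, and all 12 genes on the right lie lower.

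The respiratory chain fell on both genomes. Of 76 nuclear-encoded subunits, 1 rose and 66 fell, with a median of -0.64. Atp5a1, the alpha subunit of ATP synthase, measured 16679 and 16552 in Control and 8367 and 8603 in ETO (log2 change -0.97 ± 0.04 SE, adjusted p = 8.1e-11). Cox6b1, of complex IV, went from 2759.6 and 2803 to 1309.7 and 1306 (log2 change -1.09 ± 0.06 SE, adjusted p = 5.48e-10). Uqcrh, of complex III, went from 1455 and 1486 to 568 and 581 (log2 change -1.35 ± 0.07 SE, adjusted p = 2.01e-10). The 1 riser was Cox6a2, the heart and muscle isoform of a complex IV subunit, which was 0 and 0 in Control and 233 and 264 in ETO. Set against the 3 reads that a count of 0 allows per library, it was at least 77.5-fold higher. Its widespread counterpart Cox6a1 fell (from 3548 and 3281 to 2159.7 and 2252; log2 change -0.63 ± 0.08 SE, adjusted p = 3.09e-06).

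All 4 rows of mitochondrially encoded genes fell, with a median of -2.50. The merged row with mt-Rnr1, mt-Rnr2 (ribosomal RNAs), mt-Nd1 and mt-Nd2 went from 126778 and 124984 to 24642 and 19556 (log2 change -2.52 ± 0.15 SE, adjusted p = 1.79e-05). mt-Nd6, the 1 protein gene on the light strand, went from 13331 and 12448 to 2877 and 2222 (log2 change -2.35 ± 0.18 SE, adjusted p = 3.21e-05), from a fit that leaves out Released replicate 1, where it is listed at 0. Rows of mitochondrial genes held 3.39% and 3.34% of the signal in Control and 0.761% and 0.588% in ETO. Of 32 genes that maintain and express mitochondrial DNA, 3 rose and 24 fell. Tfam, which packages that DNA and starts its transcription, went from 1175 and 1187 to 796 and 807 (log2 change -0.56 ± 0.08 SE, adjusted p = 2.99e-05). Ssbp1, the mitochondrial single-strand binding protein, went from 566 and 580.2 to 247 and 234 (-1.25), and Nrf1, a nuclear regulator of respiratory genes, from 1094 and 1089.8 to 662 and 678 (-0.70). Mitochondrial ribosomal proteins had 1 rise and 58 falls among 77, and genes of the TCA cycle and glutamine entry had 3 rises and 19 falls among 26. Fh1, the fumarase, went from 1750.2 and 1769.5 to 879.7 and 869 (log2 change -1.01 ± 0.06 SE, adjusted p = 1.97e-09).

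Glycolysis fell too, and by more for some enzymes. Of 28 genes, 5 rose and 19 fell (median -0.64). Ldha, the lactate dehydrogenase of fast-growing cells, measured 5676 and 5631 in Control and 1031 and 1158 in ETO (log2 change -2.37 ± 0.07 SE, adjusted p = 4.7e-13). Slc16a3, the lactate exporter MCT4, went from 239 and 281 to 21.7 and 39.9 (log2 change -3.09 ± 0.22 SE, adjusted p = 9.7e-09). Pfkl, a form of the committing enzyme phosphofructokinase, went from 1649 and 1748 to 432 and 522 (log2 change -1.84 ± 0.10 SE, adjusted p = 3.45e-10). Several of these genes, Gapdh (from 566 and 569 to 238 and 209), Pgk1 (from 340.1 and 287 to 95.9 and 101) and Eno1 (from 1281 and 1350.2 to 449 and 495) among them, have many processed pseudogenes that can take their reads, so their levels are uncertain. The glucose transporter Slc2a1 did not pass with all 10 libraries in the fit (-0.16, adjusted p = 0.0657). Eno2, the neuronal enolase, and the row of Pfkfb2, which makes an activator of phosphofructokinase, rose by 2.05 and 1.42. At the entry of pyruvate, Pdk1 fell (from 1085 and 1070.0 to 193 and 223; log2 change -2.37 ± 0.09 SE, adjusted p = 1.66e-11) where its relative Pdk4 rose.

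The amino acid and integrated stress response is run by the transcription factor ATF4, whose translation rises when eIF2-alpha is phosphorylated. ATF4 pairs with C/EBP proteins on an element that holds the letters TGATGNAA, searched here on both strands in the RefSeq promoter windows of build GRCm38.p6, 250 bases before to 50 after each start. It was in 4.05% of called genes at least 2-fold higher. Of all RefSeq genes with a window, 4.51% held it in at least 1 window, as did 2.72% of those tested. In the ATF4 list, 8 of 28 genes held it (28.6%). The list is made of known targets, so this share is a description and not independent evidence. The 4 called members with the largest rises that hold it are printed from 250 bases before to 30 after the start, 5′ to 3′ on the gene's strand, with each match in capitals, to show where the letters lie. Members without the letters, such as Ddit3 and Ddit4, rose more than some of them.

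Slc7a11 (chr3:50443584-50443863, minus strand): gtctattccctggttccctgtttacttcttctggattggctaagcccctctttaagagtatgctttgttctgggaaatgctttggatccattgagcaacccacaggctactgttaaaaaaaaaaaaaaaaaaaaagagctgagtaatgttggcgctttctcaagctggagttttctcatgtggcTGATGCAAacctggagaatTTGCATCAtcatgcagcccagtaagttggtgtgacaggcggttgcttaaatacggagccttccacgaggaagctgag
Atf3 (chr1:191183304-191183583, minus strand): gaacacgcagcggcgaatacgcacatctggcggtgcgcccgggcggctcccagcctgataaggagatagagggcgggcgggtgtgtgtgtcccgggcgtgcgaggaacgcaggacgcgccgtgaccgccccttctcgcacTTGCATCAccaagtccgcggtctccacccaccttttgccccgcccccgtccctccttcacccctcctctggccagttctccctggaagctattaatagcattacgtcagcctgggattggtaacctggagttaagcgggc
Vldlr (chr19:27216770-27217049, plus strand): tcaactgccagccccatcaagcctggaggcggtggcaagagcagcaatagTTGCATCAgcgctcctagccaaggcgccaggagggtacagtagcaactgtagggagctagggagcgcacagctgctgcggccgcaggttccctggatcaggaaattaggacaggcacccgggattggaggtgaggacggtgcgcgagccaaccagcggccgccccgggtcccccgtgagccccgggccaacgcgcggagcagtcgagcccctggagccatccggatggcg
Trib3 (chr2:152344031-152344310, minus strand): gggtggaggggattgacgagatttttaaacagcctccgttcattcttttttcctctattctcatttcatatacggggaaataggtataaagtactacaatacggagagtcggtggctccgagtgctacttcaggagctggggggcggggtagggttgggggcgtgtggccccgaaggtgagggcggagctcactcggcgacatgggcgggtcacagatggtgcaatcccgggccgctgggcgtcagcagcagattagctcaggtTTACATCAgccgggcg

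Atf4 itself measured 5052 and 4959.9 in Control and 8608 and 8331 in ETO (log2 change 0.76 ± 0.05 SE, adjusted p = 1.11e-08). Of 31 tested genes of its response, 21 rose and 5 fell, with a median of 0.87. Atf3, a stress-induced repressor with 1 match in its window, went from 31.9 and 24.9 to 1299 and 1342 (log2 change 5.50 ± 0.16 SE, adjusted p = 7.41e-13). The cystine transporter gene Slc7a11, with its pair of matches, went from 11.01 and 16.6 to 1083 and 1157. Vldlr, a lipoprotein receptor, went from 52.8 and 66.4 to 481 and 442 (log2 change 2.94 ± 0.15 SE, adjusted p = 2.45e-10). Trib3, the pseudokinase whose match lies after the start, went from 446 and 433 to 2153 and 2282 (log2 change 2.33 ± 0.10 SE, adjusted p = 2.56e-11). Cebpb, a partner of ATF4, went from 7.81 and 7.19 to 167 and 204 (log2 change 4.45 ± 0.30 SE, adjusted p = 5.2e-09). Some enzymes of the same list moved the other way. Asns, asparagine synthetase, fell from 10599 and 10737 to 7780.0 and 7731 (log2 change -0.46 ± 0.05 SE, adjusted p = 4.7e-07). Psat1, of serine synthesis, fell as well (log2 change -0.28), and Phgdh, the first enzyme of that path, did not pass (-0.10, adjusted p = 0.62). Of 28 serine, glycine and one-carbon enzymes 5 rose and 17 fell, and of 20 cytosolic tRNA synthetases 5 rose and 11 fell. Total signal scaling turned the synthetase count to 7 rises and 6 falls, and Psat1 did not pass there.

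Amino acid transporters rose more widely, with 17 rises and 4 falls among 24. Slc6a9, a glycine transporter, went from 68.2 and 52.6 to 548 and 561 (log2 change 3.19 ± 0.15 SE, adjusted p = 1.19e-10). Slc1a4, which carries neutral amino acids, went from 282 and 247 to 1672 and 1701 (log2 change 2.67 ± 0.09 SE, adjusted p = 2.45e-12). Slc3a2, the heavy chain that Slc7a11 pairs with, went from 3364 and 3253 to 7569 and 7534 (log2 change 1.19 ± 0.05 SE, adjusted p = 8.56e-11). Slc7a3, an arginine transporter, and Slc6a6, the taurine transporter, fell (-0.57 and -0.68).

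Rises outnumbered falls in the endoplasmic reticulum chaperone list, and falls outnumbered rises in the mitochondrial and cytosolic lists. Falls also outnumbered rises among all genes at high counts. Of 25 genes of the endoplasmic reticulum response, 13 rose and 4 fell. Hspa5, the chaperone BiP, went from 7361 and 7549 to 12327 and 11493 (log2 change 0.68 ± 0.06 SE, adjusted p = 1.77e-07). Herpud1, which serves protein removal from that organelle, went from 232 and 244 to 747 and 783 (log2 change 1.68 ± 0.09 SE, adjusted p = 2.96e-10). Mitochondrial chaperones and proteases had 5 rises and 13 falls among 19, with Hspd1, the chaperonin, from 3935 and 3847 to 2178 and 2139 (log2 change -0.85 ± 0.07 SE, adjusted p = 3.54e-08) and Lonp1, a protease, rising by 0.30. Total signal scaling left 7 of these falls. The cytosolic heat shock list had 3 rises and 10 falls among 18. Its risers Hspb8 (from 1686 and 1609 to 4788 and 4775) and Cryab (from 105 and 146 to 792 and 917) are small heat shock proteins, and Hsp90ab1, the abundant HSP90, fell (log2 change -0.82).

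Targets of NRF2, the factor of the antioxidant response, went both ways. Of 29 genes, 15 rose and 9 fell. Srxn1, sulfiredoxin, went from 609.8 and 582 to 4714 and 4419.6 (log2 change 2.94 ± 0.08 SE, adjusted p = 3.49e-13). Hmox1, heme oxygenase, went from 879.5 and 835 to 2898 and 2960.0 (log2 change 1.77 ± 0.08 SE, adjusted p = 5.3e-11). Nqo1, a quinone reductase, went from 1681 and 1651 to 3568 and 3422 (log2 change 1.07 ± 0.06 SE, adjusted p = 1.48e-09). The row of Gclm, the modifier of glutathione synthesis, rose by 1.18. The peroxidases Prdx1 (from 6399 and 6595 to 3935 and 3548) and Gpx1 (from 7078 and 6693 to 3953 and 4239) and the mitochondrial superoxide dismutase Sod2 (from 3204 and 3179 to 2025 and 2153) fell, by log2 changes of -0.80, -0.75 and -0.61.

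Targets of p53, the factor activated by DNA damage and other stress, rose while its own transcript fell. Trp53 measured 4049.7 and 3969 in Control and 2991 and 2972 in ETO (log2 change -0.43 ± 0.07 SE, adjusted p = 8.82e-05). Of 34 genes in the list, 27 rose and 3 fell, with a median of 0.82. Mdm2, the ligase that degrades p53, went from 2461 and 2299 to 8106 and 7779.8 (log2 change 1.74 ± 0.06 SE, adjusted p = 3.58e-12). Plk2, a kinase with a p53-dependent promoter, went from 1219 and 1188 to 5681 and 5590.3 (log2 change 2.23 ± 0.07 SE, adjusted p = 1.33e-12). Perp, a desmosome protein, went from 222 and 238 to 1695 and 1818 (log2 change 2.93 ± 0.12 SE, adjusted p = 2.29e-11). Cdkn1a, the cyclin-dependent kinase inhibitor p21, went from 3416 and 3304 to 5342 and 5569 (log2 change 0.70 ± 0.07 SE, adjusted p = 5.49e-07). Fas, a death receptor, went from 4.40 and 6.23 to 99.8 and 102. The BCL2 family had 7 rises and 6 falls among 18, and the risers include the cell death activators Bbc3 (from 244 and 197 to 776 and 862) and Hrk (from 18.7 and 23.9 to 267 and 303). Bcl2l1, an inhibitor of cell death, rose as well (from 729 and 769 to 1161 and 1154). The activator Bid fell (from 1440 and 1293 to 997 and 968).

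**Figure D3:**
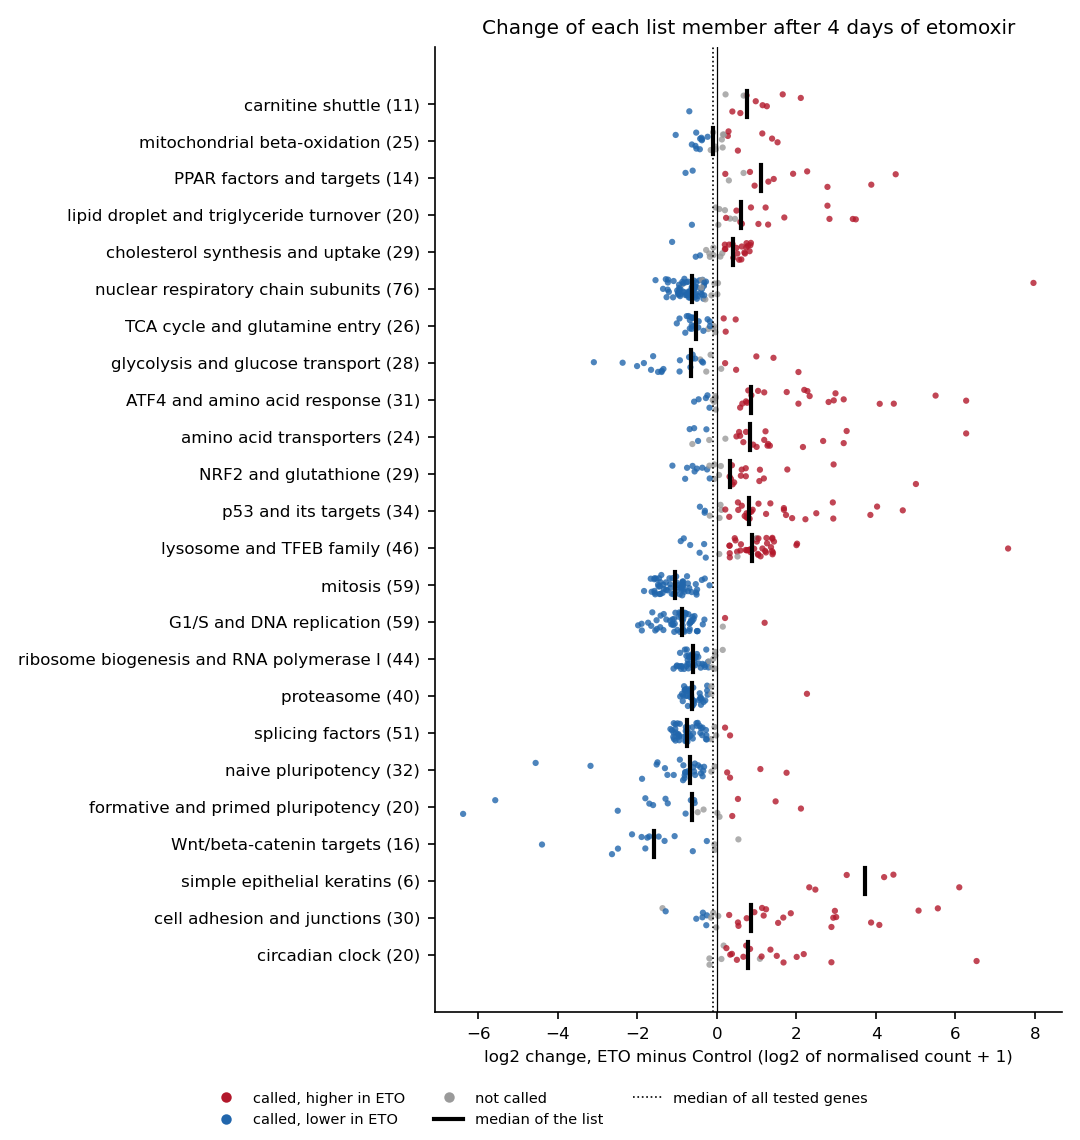
Log2 change (horizontal axis) of each tested member of 24 gene lists, 1 point per row of the table, red for calls higher in ETO, blue for calls lower and grey for rows not called. A black bar marks each list's median and the dotted line the median of all tested genes; mitosis, with 59 of 59 falling, and the keratins, with 6 of 6 rising, lie wholly on 1 side of 0.

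The cell cycle fell as a block. All 59 tested mitosis genes fell, with a median of -1.05, against 34% of all tested genes falling. Many promoters of this group hold the cell cycle homology region, a short element bound by the DREAM and MuvB complexes, whose core letters are TTTGAA. Of all RefSeq genes with a window, 20.2% held these letters on either strand, as did 14.4% of those tested. Among mitosis genes, 36 of 50 held them (72%). The letters were in 20.2% of called genes at least 2-fold lower and in 14.7% of tested genes not called. The group is known for the element, so its share is a description and not independent evidence. Among G1/S genes, which are known for E2F sites instead, 10 of 49 held it (20.4%). The 3 mitosis genes with the largest falls among holders are printed the same way as above, with the letters in capitals.

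Ccnb2 (chr9:70421525-70421804, minus strand): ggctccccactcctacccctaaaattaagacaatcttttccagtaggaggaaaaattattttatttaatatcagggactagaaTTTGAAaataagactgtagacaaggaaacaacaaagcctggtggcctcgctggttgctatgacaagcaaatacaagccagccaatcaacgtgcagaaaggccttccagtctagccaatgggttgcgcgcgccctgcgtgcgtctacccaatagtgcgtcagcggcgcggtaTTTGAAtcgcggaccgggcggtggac
Ube2c (chr2:164769679-164769958, plus strand): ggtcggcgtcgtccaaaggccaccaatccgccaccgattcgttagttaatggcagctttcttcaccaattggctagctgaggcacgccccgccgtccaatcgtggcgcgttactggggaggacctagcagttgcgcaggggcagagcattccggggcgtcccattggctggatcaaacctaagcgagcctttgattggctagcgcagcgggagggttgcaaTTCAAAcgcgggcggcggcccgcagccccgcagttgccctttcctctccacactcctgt
Kif2c (chr4:117178743-117179022, minus strand): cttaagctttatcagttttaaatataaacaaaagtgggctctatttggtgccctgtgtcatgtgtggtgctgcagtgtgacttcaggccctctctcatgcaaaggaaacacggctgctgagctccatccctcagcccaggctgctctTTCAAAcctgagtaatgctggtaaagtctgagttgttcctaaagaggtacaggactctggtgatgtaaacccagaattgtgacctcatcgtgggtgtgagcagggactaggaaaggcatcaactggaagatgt

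Ube2c, the ubiquitin carrier of the anaphase-promoting complex, measured 2565 and 2369 in Control and 785 and 795 in ETO (log2 change -1.64 ± 0.07 SE, adjusted p = 1.97e-11). Kif2c, a kinesin that takes microtubules apart, went from 1317 and 1421 to 441 and 478 (log2 change -1.57 ± 0.07 SE, adjusted p = 9.93e-11). Bub1, a checkpoint kinase, went from 2676 and 2596 to 842 and 821 (log2 change -1.66 ± 0.08 SE, adjusted p = 1.42e-10). Mki67, the proliferation marker, went from 2899 and 2897 to 1027 and 1287 (log2 change -1.33 ± 0.10 SE, adjusted p = 2.67e-08). Under the other scalings 56 to 58 of the 59 genes still passed as falls. Of 59 genes of G1/S and DNA replication, 2 rose and 56 fell. Ccnd1 and Ccnd3, cyclins of early G1, went from 4869 and 4679.9 to 1224 and 1349 and from 1653 and 1657 to 649 and 661. Ccne1, the cyclin of S phase entry, went from 1423 and 1418 to 454 and 449 (log2 change -1.65 ± 0.07 SE, adjusted p = 6.75e-11). Cdc6, which loads the replicative helicase, went from 907 and 909 to 257 and 291 (log2 change -1.73 ± 0.08 SE, adjusted p = 1.41e-10). The helicase subunit Mcm3 went from 6850.0 and 6902 to 3291 and 3309 (log2 change -1.06 ± 0.05 SE, adjusted p = 1.06e-10). Recombination and repair genes (1 rise and 35 falls among 41) and enzymes of nucleotide synthesis (3 rises and 27 falls among 34) followed, for example Rad54l (-1.39), Chek1 (-1.27), Ppat (-1.09) and Tk1 (-1.43).

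Genes that restrain the cycle were divided. Of 29 brakes and quiescence genes, 15 rose and 10 fell. Rb1, the retinoblastoma protein, went from 132 and 115 to 520.2 and 508 (log2 change 2.05 ± 0.14 SE, adjusted p = 4.21e-09), while its relative Rbl1 fell (-0.71). Cdkn2b, the inhibitor p15, went from 63.8 and 76.8 to 242 and 272 (log2 change 1.86 ± 0.15 SE, adjusted p = 5.27e-08). Klf6, a growth-restraining factor, went from 1585 and 1502 to 6279 and 6103 (log2 change 2.00 ± 0.08 SE, adjusted p = 1.32e-11). Foxo3, of the FoxO factors linked to quiescence, went from 1438 and 1270.3 to 2732 and 2985 (log2 change 1.08 ± 0.08 SE, adjusted p = 8.45e-09), while Foxo4 fell (-0.87). The list of insulin and mTORC1 brakes had 17 rises and 6 falls among 38, with Irs2, an adaptor of the insulin receptor, from 227 and 224 to 838 and 979.7 (log2 change 2.00 ± 0.12 SE, adjusted p = 1.88e-09) and Ddit4, an inhibitor of mTORC1, from 518 and 461 to 3304 and 3564 (log2 change 2.81 ± 0.08 SE, adjusted p = 4.56e-13).

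**Figure D4:**
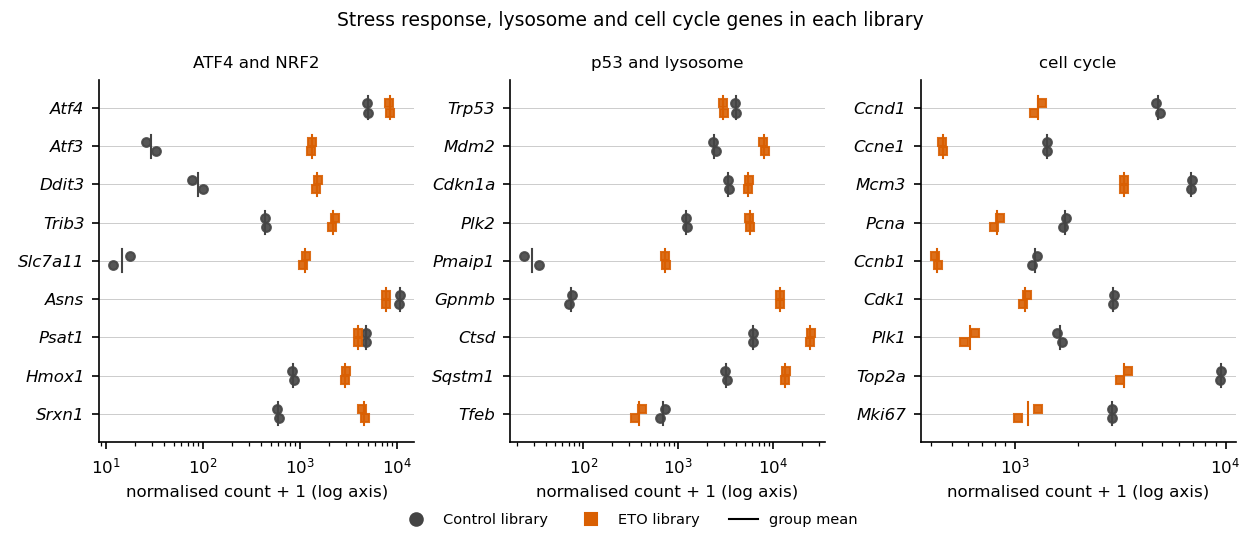
Normalised count plus 1 (log axis) of 27 genes of stress, p53, lysosome and cell cycle lists in each library, Control in grey circles and ETO in orange squares, with a bar at each group mean. Trp53, Tfeb, Asns and Psat1 are lower in ETO among genes that are mostly higher in the left and middle panels, and all 9 cell cycle genes are lower.

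The machinery of protein and RNA production fell broadly. Ribosome biogenesis had 0 rises and 37 falls among 44 (median -0.60), translation factors 3 rises and 34 falls among 45 (median -0.44), and splicing factors 2 rises and 46 falls among 51 (median -0.75). Ubtf, a factor of RNA polymerase I, went from 5529 and 5298 to 2777 and 2851 (log2 change -0.94 ± 0.06 SE, adjusted p = 1.6e-09). Eif4g1, the scaffold of cap-dependent initiation, went from 14337 and 14329 to 8842 and 9482 (log2 change -0.65 ± 0.05 SE, adjusted p = 2.2e-08). Hnrnpu, a nuclear RNA-binding protein, went from 19362 and 19260.2 to 9984 and 9769.5 (log2 change -0.97 ± 0.07 SE, adjusted p = 5.6e-09). The proteasome had 1 rise and 37 falls among 40. The row of Psmd1, a subunit of its cap counted with Armc9, fell (log2 change -0.92), and the 1 riser, the immunoproteasome subunit Psmb9, went from 4.54 and 2.08 to 11.9 and 29.6. Cytosolic ribosomal protein genes had 4 rises and 50 falls among 79, but their processed pseudogenes can take reads and make each level uncertain, and total signal scaling left 31 of the falls. Among the Myc family, which drives much of this machinery, Mycn (from 1654 and 1582 to 993 and 1088) and Mycl (from 368 and 349.8 to 209.5 and 183) fell and Myc did not pass (0.57, adjusted p = 0.198), though it passed as a rise when the fit took the 6 E14tg2a libraries alone. The antagonist Mxd4 rose (from 82.3 and 56.4 to 202 and 209; log2 change 1.58 ± 0.32 SE, adjusted p = 0.000504).

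Lysosomal genes went up, and the transcripts of the factors known to drive them went down. Of 46 genes, 37 rose and 6 fell, with a median of 0.89. The palindrome TCACGTGA, the core of the element these factors bind, was in promoters of 7 of 36 genes of the list (19.4%). It was in 2.02% of the tested genes with a window and in 1.12% of all RefSeq genes with a window. Of genes at least 2-fold higher, 1.59% held it. These shares are a description and not independent evidence. Gpnmb, a lysosomal membrane glycoprotein, measured 69.3 and 75.8 in Control and 11752 and 11775 in ETO (log2 change 7.32 ± 0.09 SE, adjusted p = 7.29e-17). The row of Ctsd, cathepsin D, which also holds Ifitm10, went from 6057 and 6136 to 24212 and 24582 (log2 change 2.00 ± 0.05 SE, adjusted p = 3.03e-13). Psap, the precursor of the saposins, went from 5813 and 5753 to 14411 and 15306 (log2 change 1.36 ± 0.06 SE, adjusted p = 1.2e-10). Atp6v1a, of the proton pump, went from 3298 and 3287 to 8010.3 and 7786 (log2 change 1.26 ± 0.06 SE, adjusted p = 1.1e-10). Flcn and Rragd, which tie these factors to mTORC1, rose as well (1.21 and 1.40). Tfeb itself fell (from 636 and 722 to 349.9 and 413; log2 change -0.83 ± 0.15 SE, adjusted p = 0.000346), as did Mitf (from 1269 and 1265 to 709 and 642; log2 change -0.91 ± 0.08 SE, adjusted p = 1.27e-07) and Tfe3 (-0.32). In the FPKM table neither Tfeb nor Tfe3 passed, and Tfe3 did not pass with total signal scaling. Of 39 autophagy genes, 19 rose and 7 fell. Sqstm1, the cargo receptor p62, went from 3230.0 and 3114 to 13206 and 13488 (log2 change 2.07 ± 0.06 SE, adjusted p = 1.16e-12). Atg9b, a membrane protein of early autophagosomes, went from 94.7 and 99.6 to 479 and 528 (log2 change 2.36 ± 0.11 SE, adjusted p = 9.43e-11). Bnip3, a receptor for the removal of mitochondria, fell (from 92.6 and 86.1 to 24.6 and 29.4; log2 change -1.69 ± 0.21 SE, adjusted p = 5.14e-06), whereas the row of Pink1, a kinase of another such path, rose (1.57).

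The defining markers of the labelled cell type, pluripotency genes, were high in both groups, at lower values in ETO. Pou5f1 measured 8266 and 8482 in Control and 4615 and 5032 in ETO (log2 change -0.80 ± 0.06 SE, adjusted p = 1.58e-08), Sox2 4379.9 and 4378 in Control and 2343 and 2517 in ETO (log2 change -0.85 ± 0.06 SE, adjusted p = 7.09e-09) and Nanog 9050.4 and 9536 in Control and 4003 and 3843 in ETO (log2 change -1.24 ± 0.05 SE, adjusted p = 4.02e-11). Of 32 naive pluripotency genes, 4 rose and 26 fell, with a median of -0.67. Prdm14, a repressor of differentiation, went from 783 and 698 to 243 and 282 (log2 change -1.49 ± 0.10 SE, adjusted p = 3.66e-09). Gbx2, a factor of LIF and Wnt self-renewal, went from 475 and 466 to 51.8 and 50.4 (log2 change -3.18 ± 0.17 SE, adjusted p = 4.18e-10). Lin28a, which blocks let-7 processing, went from 1296 and 1344 to 47.4 and 63.9 (log2 change -4.56 ± 0.11 SE, adjusted p = 2.35e-13). Klf5 rose slightly (from 2859.8 and 2679 to 3332 and 3292; log2 change 0.26 ± 0.06 SE, adjusted p = 0.0013). Formative and primed genes had 4 rises and 12 falls among 20. Otx2 and Dnmt3b, markers of the step after the naive state, fell (from 118 and 78.9 to 38.5 and 39.0 and from 1777 and 1749.8 to 539 and 623), and Dnmt3a rose (from 165 and 189 to 732 and 805; log2 change 2.11 ± 0.11 SE, adjusted p = 4.7e-10). Lefty2 and Lefty1, feedback inhibitors of Nodal, had the 2 largest falls among called genes with an FPKM mean of at least 1 in the higher group, predicted genes left out. Lefty2 went from 761 and 737 to 10.9 and 5.81 (log2 change -6.38 ± 0.21 SE, adjusted p = 2.45e-12) and Lefty1 from 269.7 and 255 to 4.94 and 4.15 (log2 change -5.57 ± 0.27 SE, adjusted p = 1.43e-10), while Nodal itself rose by 0.39.

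Targets of the Wnt pathway, which the medium activates, were lower, and those of ERK, which it blocks, went both ways. Of 16 Wnt targets, 0 rose and 13 fell, with a median of -1.58, although both groups had CHIR99021. Axin2, a feedback inhibitor of the pathway, measured 2341 and 2318 in Control and 812 and 877 in ETO (log2 change -1.46 ± 0.08 SE, adjusted p = 3.22e-10). T, the mesoderm factor Brachyury, went from 172 and 193 to 7.91 and 7.47 (log2 change -4.40 ± 0.32 SE, adjusted p = 1.43e-08). Cdx1, a posterior homeobox factor, went from 458 and 429 to 75.1 and 81.4 (log2 change -2.49 ± 0.15 SE, adjusted p = 1.99e-09). Notum, a secreted inhibitor, went from 1513 and 1398 to 402 and 433 (log2 change -1.80 ± 0.09 SE, adjusted p = 1.7e-10). Of 25 ERK feedback and immediate early genes, 13 rose and 10 fell. The AP-1 genes Jun, Fosl2 and Fos rose, Jun from 33.0 and 46.6 to 1015 and 960.5 (log2 change 4.62 ± 0.17 SE, adjusted p = 6.65e-12), Fosl2 from 34.1 and 17.6 to 619 and 629 (log2 change 4.61 ± 0.29 SE, adjusted p = 2.38e-09) and Fos from 25.3 and 38.4 to 216 and 229 (log2 change 2.80 ± 0.26 SE, adjusted p = 1.98e-07). Dusp1 and Dusp5, phosphatases of MAP kinases, rose too (from 423 and 434 to 1970.0 and 2103 and from 7.71 and 16.6 to 313 and 399). The ERK-dependent factors Etv4 (from 682 and 677 to 126 and 115) and Etv1 (from 223 and 259 to 61.3 and 57.3) and the feedback inhibitors Spry4 (from 70.4 and 49.8 to 6.92 and 9.96) and Dusp6 (from 256 and 265 to 130.5 and 145) fell, with log2 changes of -2.49, -2.005, -2.69 and -0.92. Total signal scaling left 6 of the falls in this list.

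**Figure D5:**
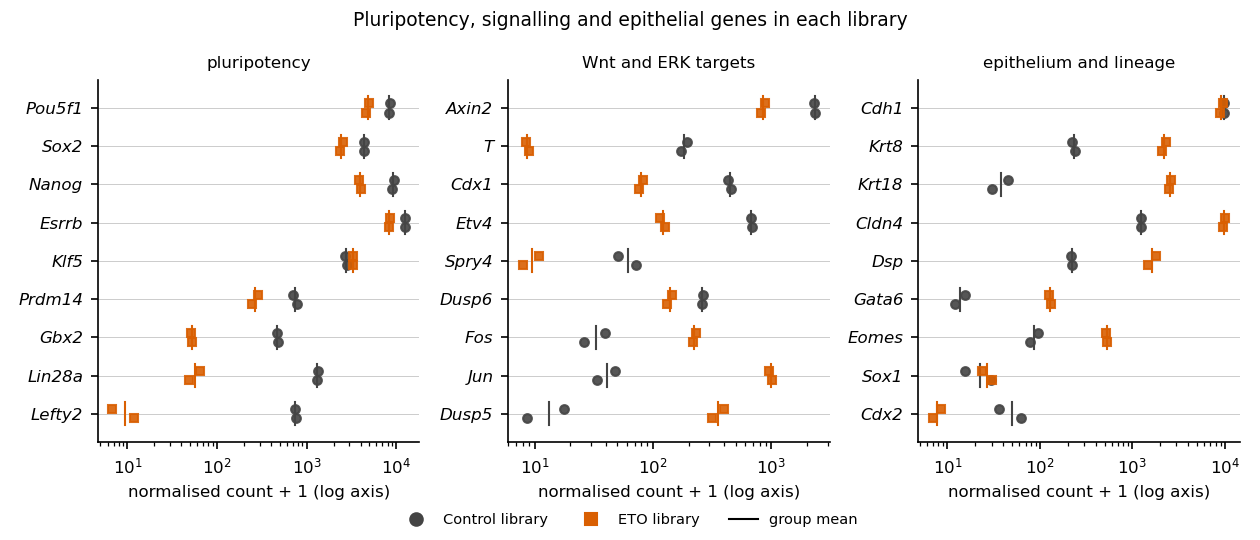
Normalised count plus 1 (log axis) of 27 genes of pluripotency, Wnt and ERK signalling, epithelium and lineages in each library, Control in grey circles and ETO in orange squares, with a bar at each group mean. Pou5f1, Sox2 and Nanog are lower in ETO but keep high values in all 4 libraries, Lefty2 falls to 10.9 and 5.81, and Krt18 rises to 2501 and 2618.

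Simple epithelial keratins and many junction genes rose. Cdh1, E-cadherin, did not pass (9693 and 9710.2 in Control and 8768 and 9450.3 in ETO; log2 change -0.09, adjusted p = 0.121), its sign changed with the scaling, and it passed as a fall with the 6 E14tg2a libraries alone. All 6 tested simple epithelial keratins rose, with a median of 3.74, but Krt23, at low counts, missed the threshold without ETO replicate 1 (adjusted p = 0.0502). Krt8 measured 238 and 223 in Control and 2116 and 2334 in ETO (log2 change 3.26 ± 0.12 SE, adjusted p = 8.22e-12), Krt7 16.5 and 16.6 in Control and 309 and 337 in ETO (log2 change 4.21 ± 0.15 SE, adjusted p = 8.22e-12), and the row of Krt19 143 and 159.8 in Control and 3136 and 3476 in ETO (log2 change 4.44 ± 0.18 SE, adjusted p = 1.75e-11). Of 30 adhesion and junction genes, 19 rose and 6 fell. Cldn4, a tight junction claudin, went from 1226 and 1233 to 9619 and 10067 (log2 change 3.00 ± 0.09 SE, adjusted p = 8.98e-13). Dsp, the desmosome plaque protein, went from 222 and 218 to 1473 and 1799 (log2 change 2.88 ± 0.10 SE, adjusted p = 5.45e-12). Dsc2, a desmosomal cadherin, went from 12.1 and 9.34 to 398 and 383 (log2 change 5.07 ± 0.33 SE, adjusted p = 3.2e-09). Gjc1, a gap junction protein, fell (from 1259 and 1382 to 541 and 539; log2 change -1.29 ± 0.08 SE, adjusted p = 1.11e-09). Of 29 collagens, laminins and integrins, 17 rose and 6 fell, among them Itgb4, the integrin of hemidesmosomes, from 131 and 125 to 1001 and 1047 (log2 change 2.99 ± 0.11 SE, adjusted p = 9.12e-12).

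Markers of other cell types were measured beside these. Their part in the results was not tested. Of 12 tested trophectoderm markers, which include a keratin, 7 rose and 4 fell. The summed level of the list was 5406 to 5514 in Control and 5229 to 5278 in ETO. Eomes went from 77.3 and 95.4 to 536 and 515 (log2 change 2.60 ± 0.28 SE, adjusted p = 4.36e-06), while Cdx2, the defining factor of that layer, fell from 61.6 and 35.3 to 5.93 and 7.47 (log2 change -2.64 ± 0.49 SE, adjusted p = 0.000261), and Elf5, Hand1, Plac1 and Dlx3 were under the filter. Of 16 primitive endoderm markers, 8 rose and 2 fell, with summed levels of 16067 to 16515 in Control and 19966 to 21915 in ETO. Gata6 and Gata4, its defining factors, went from 11.01 and 14.5 to 129 and 125 and from 22.0 and 20.8 to 135 and 127, Sox17 and Sox7 were under the filter, and Pdgfra did not pass (-0.20, adjusted p = 0.602). Of 9 mesoderm markers, 3 rose and 4 fell (summed levels 463 to 486 in Control and 279.7 to 289 in ETO), and Msgn1 was 0 in all 4 libraries. Of 6 neural markers, 2 rose and 0 fell, with Nes, an intermediate filament of many progenitors, from 198 and 188 to 689 and 683 (log2 change 1.83 ± 0.09 SE, adjusted p = 1.37e-10), Sox1 and Pax6 not passing (0.32, adjusted p = 0.42, and -0.36, adjusted p = 0.538), and Fabp7 at 0 in all 4. The neural sums were 450.3 to 473 in Control and 997.5 to 1038 in ETO. Of 14 fibroblast markers, 8 were under the filter, Col1a2, Col3a1 and Dcn among them. None of these was above 6.60, and Col6a1 and Fap were 0 in all 4. Sums over the 6 tested markers alone, Vim included, were 22162 to 22407 in Control and 17626 to 21581 in ETO. Of these 6, 2 rose and 1 fell, which was Vim (from 6489 and 6496 to 2576 and 2587). The rises were Col1a1 and Tagln, neither of which passed with FPKM values (adjusted p = 0.118 and 0.383). Tagln also lost its call with a pseudocount of 0.5 and without any 1 of the 4 libraries (adjusted p = 0.0807 to 0.143). Of 11 genes listed for 2-cell-like cells, 10 were under the filter, none of them above 5.93. The other, Eif1a, is a general translation initiation factor and not specific to such cells. It went from 4414 and 4363 to 3393 and 3320 (log2 change -0.39).

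Further named groups included clock, germline and imprinted genes. No clock gene passed as a fall and 15 of 20 rose, against 8 rises in the FPKM table. Bhlhe41, a repressor within the clock, measured 8.81 and 8.30 in Control and 885 and 878 in ETO (log2 change 6.53 ± 0.16 SE, adjusted p = 2e-13), and its relative Bhlhe40 405 and 459 in Control and 1702 and 1769 in ETO (log2 change 2.01 ± 0.08 SE, adjusted p = 1.97e-11). Germline genes had 17 rises and 4 falls among 25, with Dazl from 396 and 408 to 767 and 745 (log2 change 0.91 ± 0.16 SE, adjusted p = 0.000188) as an example and Dnd1, which guards germ cell mRNAs, falling (-1.21). Of 28 imprinted genes, 13 rose and 6 fell. Grb10, an adaptor that restrains growth receptors, went from 665 and 658 to 2901 and 3054 (log2 change 2.17 ± 0.07 SE, adjusted p = 2.45e-12). Igf2r, which clears the growth factor IGF2, went from 1926 and 1950.1 to 4500.3 and 5442 (log2 change 1.35 ± 0.07 SE, adjusted p = 6.34e-10). Plagl1, a zinc finger factor, went from 779 and 831 to 306 and 325 (log2 change -1.35 ± 0.08 SE, adjusted p = 1.59e-09). The DNA methylation list had 6 rises and 9 falls among 19. Dnmt1, the maintenance enzyme, went from 5397 and 5337 to 3139 and 3566 (log2 change -0.68 ± 0.06 SE, adjusted p = 1.94e-07). The deacetylases Hdac1 (from 435 and 433 to 176 and 152) and Hdac7 (from 379 and 333 to 108 and 123) fell, in a list with 9 rises and 11 falls among 29. Kat8, the MOF acetyltransferase studied elsewhere in the series, went from 372 and 383 to 566 and 529.7 (log2 change 0.53 ± 0.11 SE, adjusted p = 0.000798), and of 13 genes of MOF and its complexes, 3 rose and 7 fell. Interferon response genes had 4 rises and 8 falls among 15, Ifitm1 falling (from 2751 and 2676 to 915 and 923) and B2m, of the class I antigen-presenting complex, rising (from 571 and 537 to 863 and 824).

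The largest changes included genes of no list above. Of the 15 largest rises, Ptgs2, cyclooxygenase 2, went from 5.50 and 11.4 to 794 and 871 (log2 change 6.53 ± 0.33 SE, adjusted p = 2.45e-10) and Dusp8, a MAP kinase phosphatase, from 13.2 and 8.30 to 737 and 783 (log2 change 6.05 ± 0.35 SE, adjusted p = 1.5e-09). Adh7, an alcohol and retinol dehydrogenase, had 1 read in each Control library and 316 and 299 normalised counts in ETO. Tmprss2, a membrane protease, had no read in Control and measured 119.6 and 127 in ETO. Of the 15 largest falls, Pou2f3, a POU factor of tuft cells, went from 779 and 817 to 47.4 and 49.0 (log2 change -4.02 ± 0.08 SE, adjusted p = 4.38e-14). Calb2, a calcium-binding protein, went from 297 and 297 to 14.8 and 19.9 (log2 change -4.03 ± 0.16 SE, adjusted p = 1.38e-11). After the withdrawal of etomoxir, in the Released group, the mean of all 15 of these falls and of 12 of the 15 rises lay nearer to Control than to ETO on the log2 scale, a description of levels without a test. Gpnmb measured 551 and 513 there and Pou2f3 749.9 and 749.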

How the data were processed

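RNA was sequenced single end from TruSeq libraries, per the labels' protocols. The submitters' processing notes name TopHat2 2.1.1, SAMtools 1.5, deepTools and the build mm10; the counter is not given in the sources used here. The deposited gene table holds a normalised count signal per gene and library; the authors' scaling is not stated. Only 84.3 to 85.5% of its values were whole reads within 0.1 read, so no count model was used. The deposited FPKM table served as an alternative and for levels per length. Rows of one name were summed, and 1314 rows that merge genes stayed merged. Strand of counting is not stated, so overlapping genes cannot be told apart.

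Values were tested in limma 3.58.1 (R 4.3.3) on log2(value + 1), with 1 mean for each of 5 groups over 10 libraries, an intensity trend, robust empirical Bayes and Benjamini-Hochberg adjustment, two-sided, at 0.05. Genes needed a value of 10 in 2 libraries. The fit was tested on simulated data. Values of 3 reads were 2.49 to 3.30 in the 4 libraries, the limit that a count of 0 allows (counting error only). The pair of mitochondrial rows listed at 0 in Released replicate 1 was fitted without it.

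Named genes were the 15 largest called rises and falls without overlap of the groups (FPKM mean 1 or more where higher, predicted names passed over), up to 6 called members of each of 60 gene lists with the smallest adjusted p, and Kat8, Cpt1a, Cpt1b, Cpt1c and Cpt2. The other genes named were chosen after their values were seen. The comparison, its lists and its motifs were chosen with earlier results of these data known. Promoters were also searched for a sterol element (TCACNCCAC), held by 1 of 20 cholesterol genes and 1.43% of tested genes. An antioxidant element (TGACNNNGC) was in 9 of 24 NRF2 genes (37.5%), 10 of 28 ATF4 genes (35.7%) and 16.6% of tested genes. A few genes are not reported here. In all, 17 alternatives were run: scaling, pseudocount, filter, libraries in the fit, FPKM values, replicate block, left-out libraries, plain empirical Bayes and no merged rows.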

Additional observations from a re-analysis of the deposited data

How the results depend on the processing

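The number of genes called was 7494 to 10606 over 17 alternatives, against 9765, the fewest with FPKM values and the most with the 6 E14tg2a libraries alone. Leaving out each of the 4 libraries in turn gave 8354 to 8484 calls. Rises of at least 2-fold were 1461 with a filter at 50, which tests fewer genes, and falls of at least 2-fold were 857 with total signal scaling, which also gave 58.7% rises among the calls. Of the calls, 74.1% were shared with the FPKM fit, 8 of them with the opposite sign.

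The replicate numbers share only a number: differences between replicates correlated at -0.01 between Control and ETO, 0.03 between Control and Released, -0.02 between ETO and Released and 0.08 between WT and KO. A fit with the replicate block called 10284 genes, with 99.5% of the calls shared.

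For 409 single genes, those of the naming rule and 63 others named, 6851 of 6892 values kept their direction and side of the threshold. Calls were lost in 18 values of 11 genes and gained in 15. The direction turned in 8, of which only the Snhg17 row was a call: it read 0.47 with FPKM values. The others, not called before, were Cdh1 (0.012 with median-of-ratios and 0.097 with total signal scaling), Hadha (0.034), Slc2a1 (0.031) and Phgdh (0.084) with total signal scaling, and, when 1 library was left out, Phgdh (-0.41 to 0.20) and Sox1 (-0.14 to 0.79). The causes were not tested. With 2 libraries a group, leaving one out takes the spread of the lone library from the other groups.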

Other observations

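Transcripts tied to the X chromosome were looked at after their values were seen. Xist, the RNA that coats an inactive X chromosome, shares its row with a pair of predicted genes. Its Control libraries held 14.1 and 31.1 normalised counts, those of ETO 258 and 342, and those of Released 123 and 152. Its log2 change from Control to ETO was 3.76 ± 0.31 SE, with an adjusted p of 5.85e-08 in limma. Tsix, its antisense partner, shares a row with Tsx and fell (log2 change -0.78, adjusted p = 0.00229). Counting by strand is not stated, so the reads of Xist and Tsix cannot be told apart. Over 638 tested genes of the X chromosome the median log2 change was -0.26, with 104 rises and 247 falls, against medians of -0.12 to 0.03 on the 19 autosomes. For protein-coding genes alone the median was -0.21 over 465 X-linked genes and -0.09 to 0.04 on the autosomes. Of Y-linked genes, Eif2s3y and Uty fell (-0.81 and -0.34) and Ddx3y did not pass (-0.14). Ddx3y measured 993 and 1057 in Control and 928 and 928 in ETO, so Y-linked transcripts were present in both groups. Whether any cell held an inactive X chromosome was not tested.

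The change depended on the level of a gene and on its type. Genes with a mean under 30 normalised counts had a median log2 change of 0.14, and those at 3000 or above -0.33. Processed pseudogenes had a median of -0.38 over 1320 tested, with 74 rises and 469 falls, whereas protein-coding genes had -0.06 over 12647. A merged row took the type of the first of its names with a known position. The 42 rows typed as small nucleolar RNAs (median -0.48) thus include rows shared with protein-coding genes such as Phb2, Rps12 and Nop56. That median is not a measure of small nucleolar RNAs alone.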
